A study of Homo sapiens with 4 samples.

Results

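A set of 10 genes known as targets of the let-7 microRNAs was followed across 4 two-colour cDNA arrays of A549 cells: HMGA2, IGF2BP1, PLAGL2, NR6A1, PRTG, FIGN, TTLL4, SMARCAD1, PBX3 and EDN1. They were chosen by gene symbol, and every spotted cDNA clone that the platform annotation gives to exactly 1 of these symbols was kept, which gave 21 clones of 26629 on the array and 10 genes of 12483. Each array compared a culture transfected with let-7a-3 against a parental culture of the same line, with 4 cultures on each side and the dyes exchanged between arrays. A549 is an established line from a human lung adenocarcinoma. The labels name the parental line as control and mention no empty vector, and they do not say whether the transfected cultures came from 1 clone or how strongly they expressed let-7a. The design text counts the 4 cultures of each kind as biological replicates without saying how far apart they were grown, so the p-values measure the spread between these arrays, which may be technical.

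MicroRNAs of the let-7 family guide Argonaute proteins to messenger RNAs that carry a site complementary to their seed, the bases near the front of the microRNA, and the bound messages are translated less and degraded. Let-7 is scarce in the early embryo and abundant in differentiated tissue, and several of its targets are oncofetal genes, active in the embryo, silent in most adult tissues and active again in tumours. HMGA2 is the best known of them. The sequences below show what the transfected gene adds. The let-7a-3 hairpin (RefSeq MIRLET7A3, GRCh38.p14, chr22:46112749-46112822, plus strand) is printed with its mature arm in capitals, and the mature forms of the family follow with the seed, bases 2 to 8, in capitals:

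let-7a-3 hairpin: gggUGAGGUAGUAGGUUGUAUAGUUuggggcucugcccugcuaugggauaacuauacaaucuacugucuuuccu

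let-7a-5p: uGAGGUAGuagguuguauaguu

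let-7b-5p: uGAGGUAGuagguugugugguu

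let-7g-5p: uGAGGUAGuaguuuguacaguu

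let-7i-5p: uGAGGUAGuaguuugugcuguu

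miR-98-5p: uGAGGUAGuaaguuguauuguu

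All 9 mature names of the family looked up in the RefSeq table, from 12 loci, have the same seed, GAGGUAG, and so pair with the same 7-base site, CUACCUC. Outside the seed, let-7b-5p differs from let-7a-5p at 2 positions and let-7i-5p at 4. The hairpins let-7a-1, let-7a-2 and let-7a-3 hold an identical mature arm of 22 bases, so the transfected gene gives the same mature RNA as the other let-7a genes.

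The values are log ratios of the 2 channels. The sources used here state neither the base of the logarithm nor which culture is on top of the ratio, so a sign is a side, not a rise or a fall, and no fold is given. It is also not stated whether the dye-swapped arrays were turned before deposit. Each clone was therefore split into a shared component, the mean of the 4 arrays, and an alternating component, which changes sign between arrays 1 and 3 of 1 dye orientation and arrays 2 and 4 of the other, as the labels' RNA source names tell them apart. If the arrays had been turned, the shared component is the difference between let-7a-3 and parental cultures, with any dye effect left in the alternating one. If not, the roles are exchanged. With the other numerator every sign below turns. The array medians lay between -0.0022 and 0.017 and the standard deviations over all clones between 0.173 and 0.193. No intensities were given, so a clone near 0 cannot be told from a dim spot, and the A549 identity of the cultures could not be checked from levels.

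EDN1 had the largest shared component of the 10 genes, on the positive side, and PLAGL2 the largest on the negative side. EDN1, which encodes the precursor of the vasoconstrictor peptide endothelin 1, had log ratios of 0.30, 0.30, 0.36 and 0.23 on arrays 1 to 4, and PLAGL2, a zinc finger transcription factor of the PLAG family, had -0.34, -0.056, -0.33 and -0.23 on arrays 1 to 4. EDN1 was positive and PLAGL2 negative on 4 of 4 arrays. The chromatin protein HMGA2 changed side between its arrays in both of its clones and did not pass. Of the 21 clones 1 passed an adjusted p of 0.05 in limma in the shared component, against 2.07% of all clones. With the clones averaged per gene 2 of 10 passed, EDN1 and PLAGL2, against 3.04% of all genes. Both have 1 clone, so the same log ratios were tested at either level, and PLAGL2 passed only among gene means. No member passed in the alternating component, neither as a clone (0 of 21, against 4.28% of all clones) nor as a gene mean (0 of 10, against 3.29% of all genes) in limma. In bulk cultures, fewer cells with a message and less message per cell cannot be told apart. Since the genes were picked with earlier results of these arrays known, these counts are a description.

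**Figure D1:**
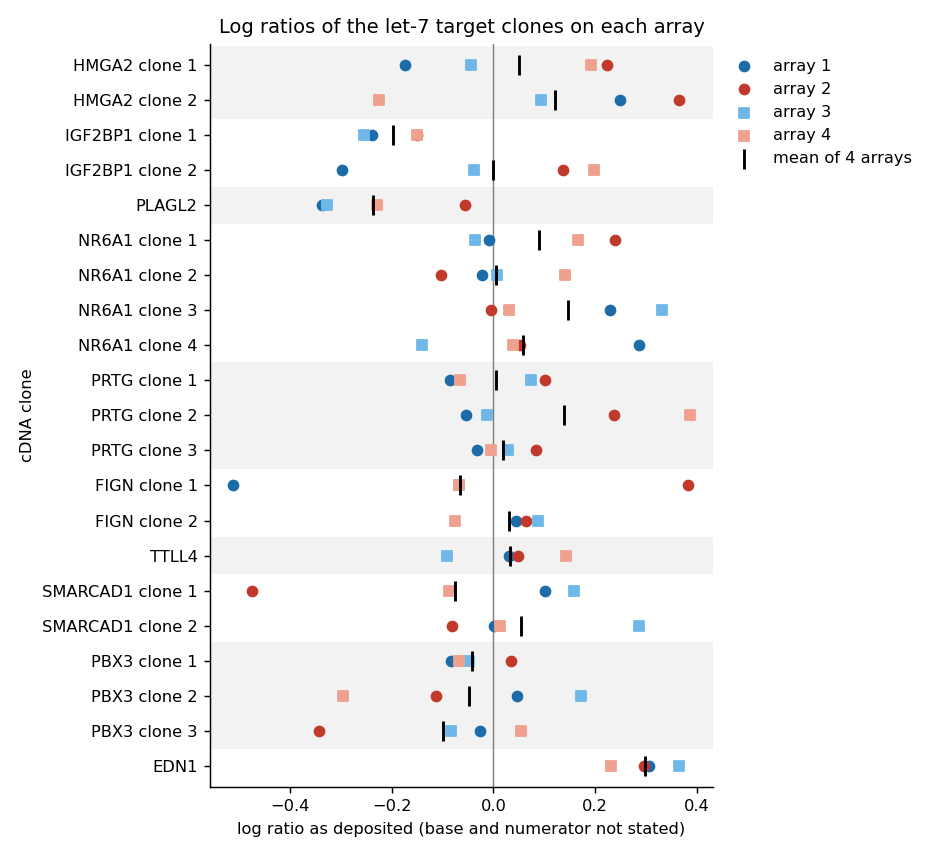
Log ratio of each of the 21 clones (rows) on the 4 arrays, with the mean as a bar; blue marks arrays 1 and 3, red arrays 2 and 4. EDN1 lies between 0.23 and 0.36 on all arrays and PLAGL2 between -0.34 and -0.056, while both HMGA2 clones straddle 0.

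Among the proteins that act on chromatin and RNA, HMGA2 and IGF2BP1 are the classical oncofetal pair. HMGA2 binds the minor groove of AT-rich DNA through AT hooks and alters chromatin architecture. Its clone 1 (IMAGp998I13570) read -0.17, 0.22, -0.043 and 0.19 on arrays 1 to 4, negative on both arrays of 1 dye orientation and positive on both of the other. Its clone 2 (RZPDp202B018D) read 0.25, 0.36, 0.094 and -0.22 on arrays 1 to 4, positive on 3 arrays and negative on array 4. The shared component was 0.050 (SE 0.051, 95% interval -0.065 to 0.16, limma adjusted p = 0.747) for clone 1 and 0.12 (SE 0.086, 95% interval -0.073 to 0.31, limma adjusted p = 0.622) for clone 2. The alternating component was -0.16 (adjusted p = 0.102) for clone 1 and 0.051 (adjusted p = 0.744) for clone 2, so the clones took opposite sides there. Averaged over both clones HMGA2 read 0.038, 0.29, 0.025 and -0.016 on arrays 1 to 4, high on array 2 and near 0 on the others. Its mean stood at 0.085 ± 0.14 (SD, n = 4), with a 95% interval of -0.042 to 0.21 and a limma adjusted p of 0.542. With 1 array left out, both components were refitted. The array then alone in its dye orientation weighed as much as the 2 of the other. Refitted in this way, the shared component of the HMGA2 mean was 0.0077 without array 2 and 0.16 without array 4.

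IGF2BP1, an RNA-binding protein that shields its target messages from decay, had 1 clone on the negative side of all arrays and 1 near 0 on average. Clone 1 (IMAGp998C23405) read -0.24, -0.15, -0.25 and -0.15 on arrays 1 to 4, negative throughout, with arrays 2 and 4 agreeing to the second decimal. Its shared component was -0.20 (SE 0.048, 95% interval -0.31 to -0.089, limma adjusted p = 0.0872), and it ranked 789 of 26629 clones by p. Clone 2 (IMAGp998M074027) read -0.30, 0.14, -0.038 and 0.20 on arrays 1 to 4, with the sign following the dye orientation and a shared component of -0.00040 (SE 0.058, 95% interval -0.13 to 0.13, limma adjusted p = 0.999). The interval of clone 2 reached -0.13 and that of clone 1 ended at -0.089, so the intervals overlapped between these values. The mean of both clones was -0.099 ± 0.13 (SD, n = 4, limma adjusted p = 0.33). A further pair of clones annotated to both IGF2BP1 and WDR36 was left out of these counts and had shared components of -0.0086 and -0.11, with limma adjusted p of 0.967 and 0.618.

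SMARCAD1, an ATP-dependent chromatin remodeller related to SWI/SNF, changed sign with the dye orientation in its first clone. Clone 1 (IMAGp998M08281) read 0.10, -0.47, 0.16 and -0.088 on arrays 1 to 4, positive on arrays 1 and 3 and negative on arrays 2 and 4. Clone 2 (IMAGp998M12271) read 0.0011, -0.082, 0.29 and 0.013 on arrays 1 to 4, carried mainly by array 3. The shared components were -0.076 (adjusted p = 0.698) and 0.054 (adjusted p = 0.766) in limma, on opposite sides of 0. In the alternating component both clones were on the same side, at 0.21 (adjusted p = 0.102) and 0.089 (adjusted p = 0.375). Their mean, 0.15 (adjusted p = 0.143), was the largest alternating value of the 10 genes. It lay between 0.087 without array 2 and 0.21 without array 4, and among the settings that leave out 1 array it passed only without array 1, at 0.19 (limma adjusted p = 0.0153). In that setting 2292 of 12483 genes passed, against 411 with all arrays.

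Of the transcription factors, PLAGL2 was measured by 1 clone (IMAGp998J14395). It was negative on 4 of 4 arrays and weakest on array 2. Its shared component was -0.24 (SE 0.053, 95% interval -0.36 to -0.12, limma adjusted p = 0.0597), just short of the threshold when adjusted over all clones. The same log ratios, tested among gene means, gave -0.24 with a smaller SE, 0.045, and a limma adjusted p of 0.0319, rank 294 of 12483. The moderated variance there draws on means over 1 or more clones, and the adjustment runs over genes, not clones. Which of these moved the adjusted p was not tested. The call rests on the level at which the values are tested. The call was also lost on leaving out array 2 (adjusted p = 0.0637) or array 4 (adjusted p = 0.24) and in a fit of the shared component alone (adjusted p = 0.179). The refitted shared component stayed between -0.28 and -0.19 with 1 array left out. Leaving out array 2 or array 4 also lowered the number of genes called over the whole array.

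NR6A1, the germ cell nuclear factor, is an orphan nuclear receptor that represses pluripotency genes in the embryo, and it had the most clones. Clone 3 (IMAGp998I17129) read 0.23, -0.0039, 0.33 and 0.030 on arrays 1 to 4, high on arrays 1 and 3 and near 0 on the others. Clone 1 (IMAGp998A06374) read -0.0081, 0.24, -0.036 and 0.17 on arrays 1 to 4, the reverse pattern. Clones 2 and 4 lay between -0.10 and 0.14 and between -0.14 and 0.29. All 4 clones had a positive shared component, of 0.0056 to 0.15, with adjusted p from 0.243 to 0.979 in limma, but with the arrays centred on their medians clone 2 took the negative side, at -0.0025. The opposite alternating parts of clones 1 and 3 (-0.11 and 0.13) cancelled in the gene mean. That mean was positive on all arrays, at 0.075 ± 0.039 (SD, n = 4), the lowest SD among the 10 gene means, and did not pass (limma adjusted p = 0.456). Averaging 4 clones tends to lower the SD, and the single clones had SDs of 0.10 to 0.17.

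PBX3, a homeodomain cofactor of HOX proteins, had 3 clones, all with small negative shared components. They were -0.041, -0.048 and -0.099, with limma adjusted p of 0.791, 0.779 and 0.604. Clone 2 (IMAGp998H24833) read 0.046, -0.11, 0.17 and -0.30 on arrays 1 to 4 and changed sign with the dye orientation. Clone 3 (RZPDp1096E055D) read -0.025, -0.34, -0.084 and 0.055 on arrays 1 to 4. Refitted without array 2, its shared component was 6.2e-05. The gene mean was -0.063 ± 0.071 (SD, n = 4, limma adjusted p = 0.529). A clone of the neighbouring transcript PBX3-DT carries its own symbol and was not counted.

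The other members work at the cell surface, on microtubules or outside the cell. PRTG, protogenin, is an embryonic receptor of the immunoglobulin superfamily related to DCC and neogenin. Its clone 2 (IMAGp998G034163) read -0.053, 0.24, -0.013 and 0.39 on arrays 1 to 4, high on arrays 2 and 4 and slightly negative on the others. Clones 1 and 3 stayed within -0.086 and 0.10. Clone 1 (IMAGp998C133894) is annotated through expressed sequence tags and clones 2 and 3 through a RefSeq messenger RNA. The shared components were 0.0054 (adjusted p = 0.98), 0.14 (adjusted p = 0.289) and 0.019 (adjusted p = 0.914) in limma, all positive except that clone 1 turned to -0.0027 with median-centred arrays. The alternating component of clone 2 was -0.17 (adjusted p = 0.0856), the smallest alternating adjusted p of the 21 clones.

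FIGN, fidgetin, is an ATPase that severs microtubules. Its clone 1 (IMAGp998E0680) had the widest range of all members, with -0.51, 0.38, -0.067 and -0.068 on arrays 1 to 4, an SD of 0.37 against a median of 0.14 over all clones. The extremes were arrays 1 and 2. The sign of its shared component (-0.066, limma adjusted p = 0.814) turned in the refits without array 1 or without array 4. Clone 2 (IMAGp998I091855) read 0.045, 0.064, 0.088 and -0.075 on arrays 1 to 4, within a narrower range. TTLL4, a ligase that adds glutamate chains to tubulin and other proteins, was measured by 1 clone (IMAGp998F03206). It read 0.030, 0.048, -0.092 and 0.14 on arrays 1 to 4, on both sides of 0, with a shared component of 0.032 (SE 0.052, 95% interval -0.084 to 0.15, limma adjusted p = 0.848).

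EDN1 was measured by 1 clone (IMAGp998G05124), and its 4 values had the smallest SD relative to their mean of any member. The mean was 0.30 ± 0.054 (SD, n = 4), the shared component 0.30 (SE 0.050, 95% interval 0.19 to 0.41, limma adjusted p = 0.0162), rank 288 of 26629 clones. As a gene mean it had the same log ratios, a smaller SE of 0.040, a limma adjusted p of 0.00734 and rank 142 of 12483. Its alternating component was 0.036 (adjusted p = 0.686) in limma, so arrays of the 2 dye orientations gave similar values, 0.33 for arrays 1 and 3 and 0.26 for arrays 2 and 4. Leaving out array 2 or array 4 lowered the number of clones and genes called over the whole array. The refitted shared component of EDN1 stayed between 0.28 and 0.31 with 1 array left out. As a clone it lost its call on leaving out array 2 (adjusted p = 0.158) or array 4 (adjusted p = 0.0884) and in a fit of the shared component alone (adjusted p = 0.0696), and as a gene mean on leaving out array 2 (adjusted p = 0.0637).

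**Figure D2:**
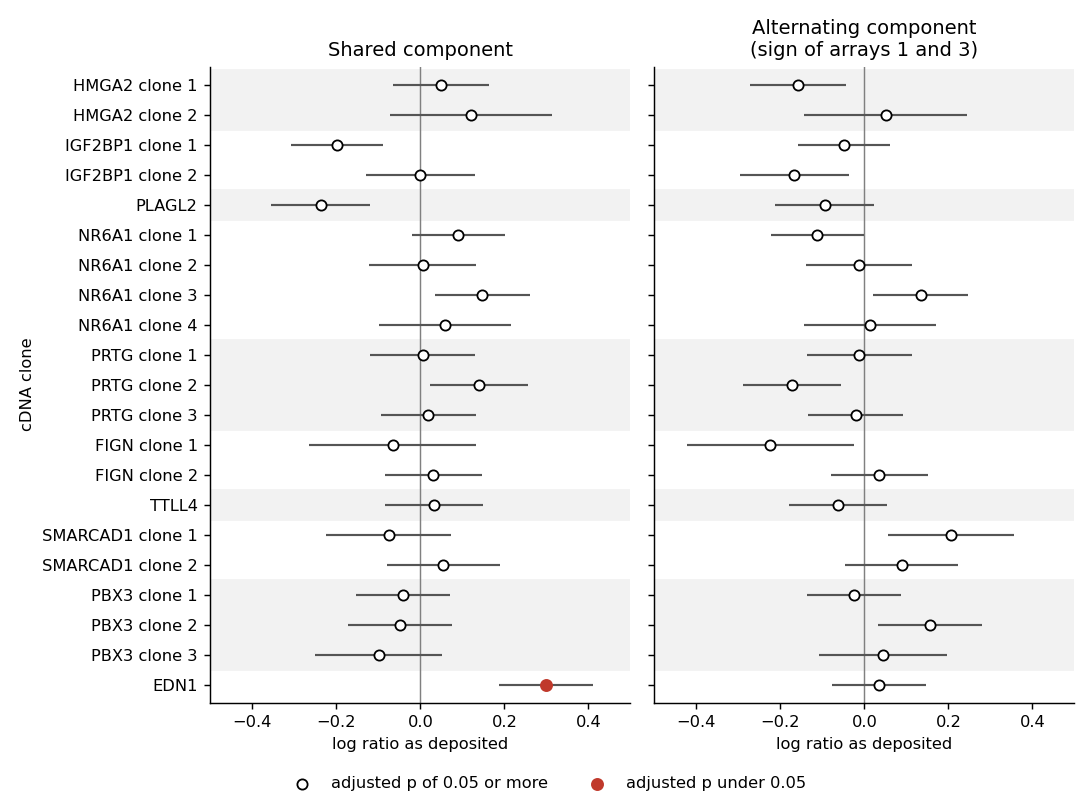
Shared component (left) and alternating component (right) of each clone with its 95% interval from limma's moderated variance. EDN1, at 0.30, is the filled point, past an adjusted p of 0.05, and the intervals of 16 of 21 clones include 0 on the left.

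Before adjustment, 5 of 21 clones had p under 0.05 in the shared component, against 12.5% of all clones in limma. EDN1, NR6A1 clone 3 and PRTG clone 2 were on the positive side, and PLAGL2 and IGF2BP1 clone 1 on the negative side. By gene mean 3 of 10 did so (EDN1, PLAGL2 and IGF2BP1), against 14.6% of all genes. In the alternating component it was 8 of 21 clones against 25.2%, and 2 of 10 gene means (SMARCAD1 and IGF2BP1) against 25.6%. Of the 21 clones 13 were positive and 8 negative in the shared component as deposited, with a median of 0.019, against 0.0081 over all clones, of which 54.4% were positive. The gene means were 5 positive and 5 negative, with a median of 0.011.

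In 11 of 21 clones arrays 1 and 3 did not overlap arrays 2 and 4, near the share over all clones, 57%. EDN1, PLAGL2 and IGF2BP1 clone 1 had 1 sign on all 4 arrays, 3 of 21 clones, also near the share over all clones, 14.1%. The shared component made up 97.6% of the sum of squared log ratios for EDN1, 94.4% for IGF2BP1 clone 1 and 81.6% for PLAGL2. For HMGA2 clone 1 the alternating component made up 84.2%, while 73.0% for HMGA2 clone 2 belonged to neither. Over the 21 clones the medians were 15.8% shared and 26.6% alternating, beside 16.1% and 35.3% over all clones.

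**Figure D3:**
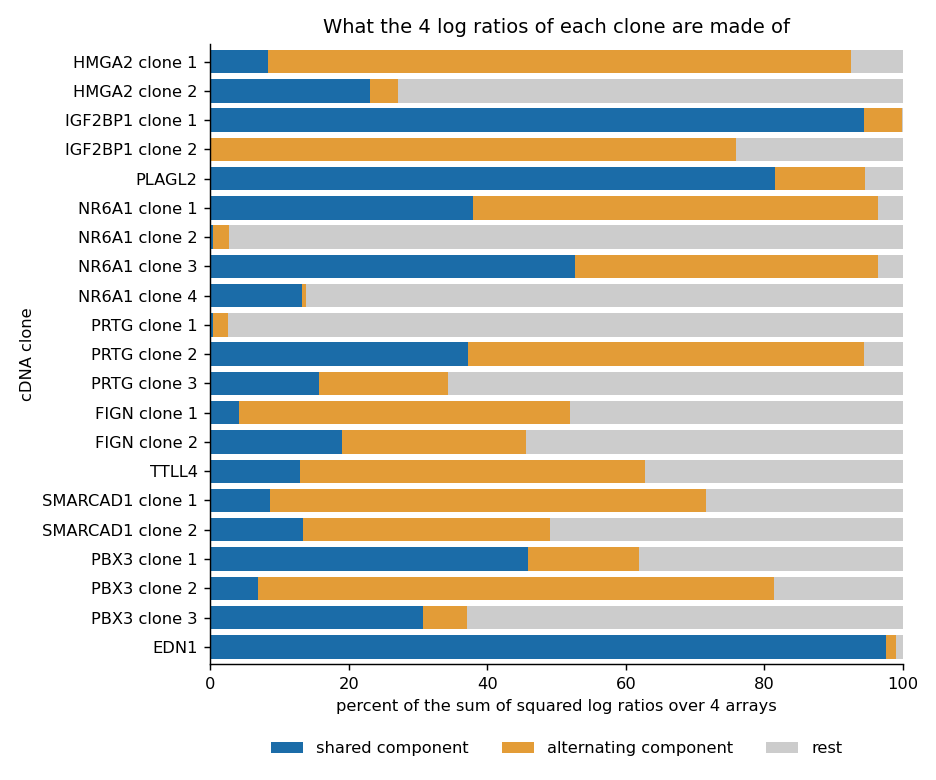
Share of the sum of squared log ratios over the 4 arrays that the shared component, the alternating component and the rest make up, for each clone. The shared share is highest in EDN1, IGF2BP1 clone 1 and PLAGL2, at 97.6%, 94.4% and 81.6%.

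**Figure D4:**
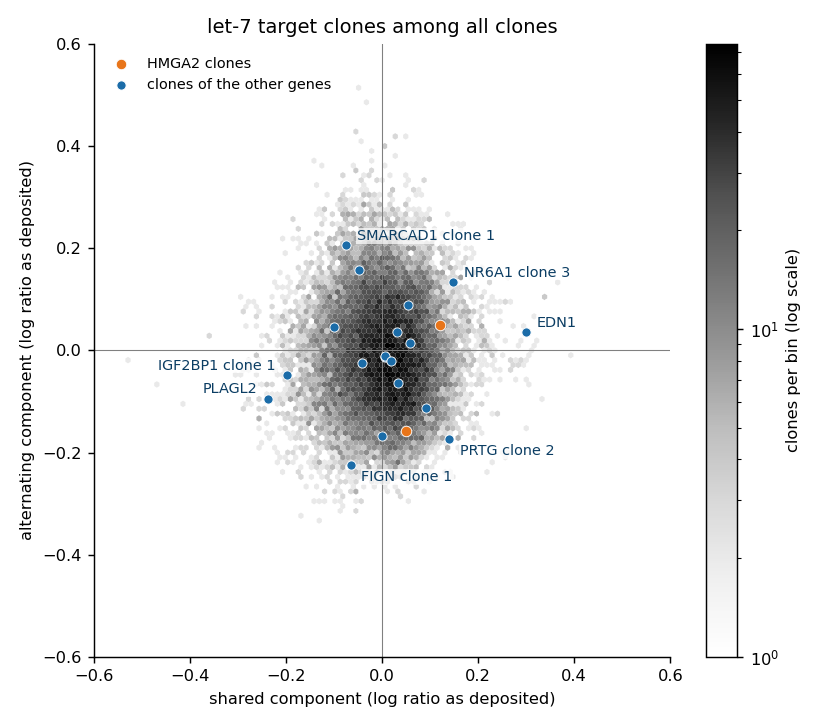
Shared (x axis) against alternating component (y axis) of all clones as shaded bins on a log scale, with the 21 clones as points. EDN1 at 0.30 and PLAGL2 at -0.24 lie furthest out on either side, and 121 clones, none of them a member, lie beyond the plotted 0.6.

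Clones of a gene are no replicates of the condition, and they are set side by side to show how far values of 1 gene lay apart. Of the 7 members with 2 or more clones, FIGN and SMARCAD1 had clones on both sides of 0 in the shared component, 2 of 7, beside 58.0% of all 5075 genes with several clones. The gap between the outermost clones was 0.198 for IGF2BP1, 0.141 for NR6A1, 0.134 for PRTG, 0.130 for SMARCAD1 and 0.0962 for FIGN, and 0.0713 for HMGA2 and 0.0579 for PBX3. The median gap was 0.0971 over all 5075 genes with several clones and 0.0709 over the 3108 genes with exactly 2 clones. A gap tends to widen with the number of clones, and NR6A1 has 4 and PRTG and PBX3 have 3 each. The smallest shared log ratio called on the array was 0.230 in size, a size that 2 member clones, EDN1 and PLAGL2, exceeded. A shared difference below that size was not called for any clone of these arrays.

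Beyond the 10 genes, a list of 75 other known or predicted let-7 targets was tested, of which 57 were measured. In the shared component 1 of 57 passed in limma, against 3.04% of all genes. This was BZW1, an eIF5-mimic protein that regulates translation, with a negative log ratio. It read -0.60, -0.53, -0.72 and -0.46 on arrays 1 to 4, the same side as PLAGL2 and outside the range of every member on each array, with a shared component of -0.58 (SE 0.043, limma adjusted p = 0.000307). It was measured by 1 clone. E2F5, a repressor of the E2F family, and GALNT1, which starts O-linked glycosylation, came next without passing, at 0.16 (adjusted p = 0.0807) and -0.18 (adjusted p = 0.0819) in limma. In each of them 1 of 3 clones passed by itself, E2F5 clone 1 at 0.39 (limma adjusted p = 0.0138) and GALNT1 clone 2 at -0.53 (limma adjusted p = 0.0008). E2F5 clone 2 read 0.40, -0.23, 0.37 and -0.21 on arrays 1 to 4 and passed in the alternating component, at 0.30 (adjusted p = 0.0202) in limma. In the shared component the other E2F5 clones were at 0.084 and 0.012 and the other GALNT1 clones at 0.022 and -0.028. Of the 57 genes 34 were positive and 23 negative, with a median of 0.019 beside 0.0069 over all genes, of which 54.2% were positive. In limma 11 of 57 were below 0.05 before adjustment, against 14.6% of all genes. In the alternating component 1 of 57 passed in limma, against 3.29% of all genes. There 10 of 57 were below 0.05 before adjustment, against 25.6%. The gene that passed was ONECUT2, a homeodomain factor, at 0.32 (adjusted p = 0.0198) in limma. It read 0.37, -0.32, 0.34 and -0.25 on arrays 1 to 4.

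**Figure D5:**
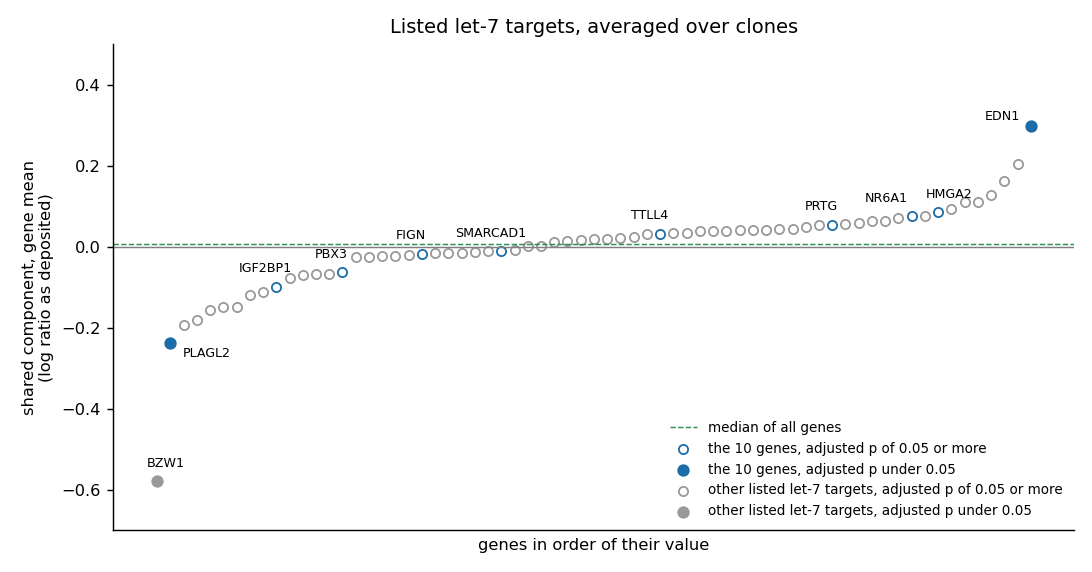
Shared component of the 67 measured let-7 targets, averaged over clones and put in order, with the 10 genes in blue and the others in grey. BZW1 at -0.58, PLAGL2 at -0.24 and EDN1 at 0.30 are filled, past an adjusted p of 0.05, and the dashed line is the median of all genes, 0.0069.

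Of 7 other measured high mobility group proteins, HMGB3 and the nucleosome-binding HMGN2 passed in the shared component, 2 of 7 against 3.04% of all genes. Both were negative, at -0.25 (adjusted p = 0.0311) and -0.23 (adjusted p = 0.0379) in limma. HMGB3 read -0.15, -0.32, -0.33 and -0.21 on arrays 1 to 4. Of its 2 clones, clone 2 passed by itself (limma adjusted p = 0.032) and clone 1 did not (limma adjusted p = 0.104). HMGN2 read -0.43, -0.12, -0.43 and 0.062 on arrays 1 to 4, most negative on arrays 1 and 3 and positive on array 4. Neither of its clones passed by itself, at limma adjusted p of 0.125 and 0.0501. Its alternating component was -0.20 (limma adjusted p = 0.0552). The gene-mean calls of HMGB3 and HMGN2 were lost on leaving out array 2 or array 4 and in a fit of the shared component alone. In these settings fewer of all genes passed too. HMGA1, the sister gene of HMGA2, read 0.027, 0.040, 0.19 and -0.0052 on arrays 1 to 4 and stood at 0.064 (adjusted p = 0.575).

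In the endothelin system 0 of 4 measured genes passed in limma, and 1, EDN2, was below 0.05 before adjustment. This ligand was negative on 4 of 4 arrays (-0.11, -0.028, -0.15 and -0.17 on arrays 1 to 4), at -0.12 (adjusted p = 0.262) in limma. EDN3, another ligand of the family, read -0.18, -0.17, -0.070 and 0.040 on arrays 1 to 4 and was at -0.093 (adjusted p = 0.444) in limma, with a 95% interval of -0.21 to 0.019. None of 16 genes of let-7 biogenesis and control passed in limma. AGO2, the slicing Argonaute, was the 1 gene of these with an unadjusted p below 0.05, at 0.10 (adjusted p = 0.286). PLAGL1, the measured relative of PLAGL2, was at -0.052 (adjusted p = 0.63) in limma. Its clone 2 (0.17, -0.31, 0.21 and -0.31 on arrays 1 to 4) passed in the alternating component, at 0.25 (adjusted p = 0.0312), and its clone 1 was at -0.092 (adjusted p = 0.331).

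No gene passed in the shared component in limma among 8 IGF2BP relatives and RNA partners, 6 PBX and MEIS partners, 4 relatives and targets of NR6A1, 5 relatives of PRTG, 5 of FIGN, 11 of TTLL4 and 12 of SMARCAD1. Before adjustment 1 relative of PRTG and 3 of SMARCAD1 lay below 0.05, and none of the other lists did. The largest statistics were those of DHX9 (-0.10), PBX4 (0.064), NR2F1 (0.058), the netrin receptor NEO1 (0.16), KATNA1 (-0.081), TTLL12 (-0.094) and SMARCA2 (-0.12). A single clone passed by itself in NEO1, at 0.27 (limma adjusted p = 0.0266), and in SMARCA2, at -0.37 (limma adjusted p = 0.0117). Passing in the alternating component were the katanin subunit KATNA1 at 0.22 (adjusted p = 0.047) and the remodeller CHD1 at 0.22 (adjusted p = 0.0395) in limma. Each has 1 clone. Tested among clones, KATNA1 did not pass (limma adjusted p = 0.0514) and CHD1 did (limma adjusted p = 0.0455).

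Cell type markers were read on the same arrays. Of 9 measured markers of the A549 epithelium, FOXA1 (0.33) and KRT8 (0.39) passed on the positive side, that of EDN1, and AKR1B10 (-0.84) on the negative side, that of PLAGL2, 3 of 9 against 3.04% of all genes. The 9 markers took no common side, with 4 positive and 5 negative and a median of -0.0039. The FOXA1 clones lay apart, at 0.073 (adjusted p = 0.65) for clone 1 and 0.59 (adjusted p = 0.000212) for clone 2, which also passed in the alternating component, at 0.24 (adjusted p = 0.0354). None of 8 fibroblast and none of 7 endothelial markers passed in the shared component in limma (1 of each was below 0.05 before adjustment), and of 5 blood cell markers NKG7 did (-0.26). In the alternating component 4 of 8 fibroblast, 4 of 7 endothelial, 1 of 9 epithelial and 1 of 5 blood cell markers were below 0.05 before adjustment, against 25.6% of all genes, and the 5 blood cell markers were all negative. The endothelial marker TEK passed there as a gene mean (-0.20, limma adjusted p = 0.0439). Tested among clones, its 1 clone did not pass (limma adjusted p = 0.0546). The calls of NKG7, TEK, KATNA1 and CHD1 were lost on leaving out array 2 or array 4, that of TEK also with median-centred arrays, and that of ONECUT2 on leaving out array 2. All 5 were also lost in a fit of each component alone, at adjusted p of 0.0782 to 0.216. Calls over all genes fell in both components without array 2, without array 4 and in the fit of each component alone. Those of BZW1, FOXA1, KRT8 and AKR1B10 held with any 1 array left out and were lost without variance moderation. Whether epithelial state has a part in the values of EDN1 or PLAGL2 was not tested.

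The clones with the most similar 4 values to EDN1, by Euclidean distance over the 4 arrays among clones of other genes with 1 symbol, belonged to MRPS33, a mitochondrial ribosomal protein (distance 0.032), BICC1 (0.063) and the lysosomal enzyme GUSB (0.087). The MRPS33 clone read 0.28, 0.30, 0.36 and 0.21 on arrays 1 to 4, beside 0.30, 0.30, 0.36 and 0.23 on arrays 1 to 4 for EDN1. For HMGA2 clone 2 the nearest were NUP58 (0.15), SOCS2 (0.17) and DGCR6L (0.18), at larger distances.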

How the data were processed

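Total RNA of A549 cultures was amplified, labelled with Cy3 or Cy5 and hybridised in pairs to 4 cDNA arrays, per the labels' protocols. The authors' scanner files went through ArrayMagic and VSN, per the series design text. The deposited values are log ratios whose base, numerator and orientation are not stated, and no further normalization was applied. Gene symbols came from the platform annotation (20976 probes with 1 symbol, 848 with several, 4805 with none), and 20963 of the first kind matched the RefSeq gene table.

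All 26629 probes, and separately the means of 12483 genes, were fitted in limma 3.58.1 (R 4.3.3) with a shared and an alternating coefficient. Residual degrees of freedom were 2, to which moderation added 7.22 for probes and 5.89 for genes. Tests were two-sided, adjusted by Benjamini-Hochberg over all probes or genes, with a threshold of 0.05 and 95% intervals. The fit was tested on simulated data, where the share of false calls exceeded the nominal one in most draws. The 10 genes and all gene lists were chosen with earlier results of these data known. Named genes are the members, list genes that passed or had the largest statistics, and the nearest clones. Alternatives were each component alone, median centring, quantile normalization, MAD (median absolute deviation) scaling, robust moderation (statmod 1.5.0), no moderation, array weights, single-symbol probes, the clone with the largest statistic per gene, and each array left out. The number of arrays limits the precision. Figures used matplotlib 3.10.9.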

Additional observations from a re-analysis of the deposited data

How the results depend on the processing

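No paired analysis was possible because all 4 arrays form 1 group, each already a pair of cultures. The text's member values kept their side and call under median centring, quantile normalization, MAD scaling, robust moderation, array weights and single-symbol probes, except for the reversals given here. In the shared component, fitting each component alone left 0 member clones, 1 member gene mean, 231 of all clones and 156 of all genes past 0.05. In the alternating component it left 102 clones, 10 genes and 0 of the other let-7 targets. Without moderation limma called 0 member clones, 0 member gene means, 0 of all clones (2514 at an unadjusted p under 0.05), 0 of all genes (1337 unadjusted) and 0 other let-7 targets in the shared component. In the alternating component it called 4 clones, 1 gene and 0 other let-7 targets, with 2 residual degrees of freedom by construction. With the clone of the largest statistic per gene, which favours large values by construction, 634 genes and 5 other let-7 targets passed in the shared component and 1787 and 9 in the alternating one. The shared component of IGF2BP1 clone 2 turned to 0.011 with quantile normalization and 0.0038 with MAD scaling, and median centring turned NR6A1 clone 2 to -0.0025 and PRTG clone 1 to -0.0027. None of these was called.

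With 1 array left out, the shared component had 0 to 1 member clones, 0 to 2 member gene means, 271 to 884 clones, 179 to 1471 genes and 1 to 10 other let-7 targets past the threshold, and the alternating component 0 to 1 member gene means, 113 to 1874 clones, 39 to 2292 genes and 0 to 10 other let-7 targets. Uncalled shared components that changed side were those of HMGA2 clone 2 (-0.026 to 0.27), IGF2BP1 clone 2 (-0.065 to 0.064), NR6A1 clone 2 (-0.055 to 0.067), NR6A1 clone 4 (-0.048 to 0.17), PRTG clone 1 (-0.036 to 0.047), PRTG clone 3 (-0.0036 to 0.041), FIGN clone 1 (-0.18 to 0.047), FIGN clone 2 (-0.0042 to 0.065), SMARCAD1 clone 1 (-0.17 to 0.021), SMARCAD1 clone 2 (-0.017 to 0.13), PBX3 clone 3 (-0.20 to 6.2e-05), FIGN gene mean (-0.091 to 0.056) and SMARCAD1 gene mean (-0.071 to 0.050). Uncalled alternating components that changed side were those of HMGA2 clone 2 (-0.096 to 0.20), NR6A1 clone 2 (-0.074 to 0.048), NR6A1 clone 4 (-0.093 to 0.12), PRTG clone 1 (-0.054 to 0.030), PRTG clone 3 (-0.043 to 0.0020), PBX3 clone 1 (-0.050 to 0.00080), PBX3 clone 3 (-0.055 to 0.14), HMGA2 gene mean (-0.13 to 0.024) and NR6A1 gene mean (-0.014 to 0.026). These ranges come from the refits, in which the array alone in its dye orientation weighed as much as the 2 of the other. They are not plain means of the arrays left, whose sign can differ. Apart from the construction named, the cause was not tested. The low number of arrays and the lack of intensities limit all values, and a dim spot cannot be told from an unchanged gene.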

Other observations

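No member clone had 1 array standing apart from the other 3 by Dixon's 95% criterion, 0 of 21, beside 4.11% of all clones.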
